A study of Homo sapiens with 12 samples.

Results

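Efflux pumps of the ATP-binding cassette (ABC) family use ATP to carry drugs, conjugated metabolites and lipids out of the cell. The multidrug resistance-associated proteins (MRPs) of subfamily C export glutathione, glucuronide and sulfate conjugates, P-glycoprotein exports hydrophobic drugs that are not conjugated, and the sterol exporter ABCA1 loads cholesterol and phospholipid onto apolipoprotein A-I. In the liver, MRP2 works at the canalicular membrane that faces the bile and MRP3 at the basolateral membrane that faces the blood. The transcripts of 9 such genes were followed here, out of 26258 genes in the deposited table: *ABCC1* (MRP1), *ABCC2* (MRP2), *ABCC3* (MRP3), *ABCC4* (MRP4), *ABCC5* (MRP5), *ABCC10* (MRP7), *ABCB1* (P-glycoprotein), *ABCG2* (BCRP) and *ABCA1*. The set was chosen by the response of 2 of its genes in these same libraries, *ABCC2* being lower and *ABCC3* higher with loss of YAP/TAZ and both being lower with loss of ATF4, and the other 7 were set beside them as further pumps. Because the differences between siRNAs chose the set, they are given for the 9 genes as a description with no test.

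The cells were HLE, a human hepatocellular carcinoma line. They received the control siRNA, siCtrl, siRNAs that deplete the Hippo pathway co-activators YAP and TAZ together (siY/T), or siRNA that depletes ATF4, a transcription factor of the amino acid and stress response (siATF4). Every kind of cell was kept in DMSO, the vehicle, or in 5 µM Sorafenib (Srf), a multikinase inhibitor given in liver cancer. The labels give no duration, and the study's legend gives a higher dose. All 6 groups, the controls included, carried an siRNA, all came from 1 cell line, and each had 2 libraries. The study's methods speak of biological triplicates, which differs from the 2 libraries per group here. The labels do not say that the 2 libraries came from separate cultures, so the p-values measure only the spread between these samples.

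Values were in CPM, in which the counted reads of each library are scaled to sum to 1000000. The libraries held 41408348 to 53619732 reads on genes, so 1 read stood for 0.0186 to 0.0241 CPM. *YAP1* was at 278 CPM in siCtrl DMSO and 52.1 CPM in siY/T DMSO cells, *WWTR1*, which encodes TAZ, at 171 and 61.0 CPM, and *ATF4* at 248 CPM in siCtrl DMSO and 98.5 CPM in siATF4 DMSO cells. With Sorafenib, *ATF4* was at 488 CPM in siCtrl and 87.6 CPM in siATF4 cells, and no library went against its label. Each target also lay below siCtrl with the other siRNA in places, *WWTR1* at 106 CPM in siATF4 DMSO cells and *ATF4* at 315 CPM in siY/T Srf cells. Of 14 hepatocyte markers, 10 stayed under 1 CPM in all 12 libraries, among them *ALB*, *APOA1*, *APOB*, *TTR*, *AFP* and *HNF4A*. The keratins *KRT8* and *KRT18* and the fibrinogen gene *FGB* made up nearly all of that list, whose summed level was 3653 to 3700 CPM in siCtrl DMSO, 1232 to 1250 CPM in siY/T DMSO and 2209 to 2328 CPM in siATF4 DMSO cells. With Sorafenib the sum was 3342 to 3467 CPM in siCtrl, 1526 to 1600 CPM in siY/T and 2656 to 2856 CPM in siATF4 cells. Single markers did not all follow the sum. *SERPINA1* was at 0.189 CPM in siCtrl DMSO and 1.98 CPM in siY/T DMSO cells, and in Sorafenib *FGB* was at 249.3 CPM with siY/T against 175 CPM with siCtrl and *KRT18* at 1052 CPM with siATF4 against 721 CPM with siCtrl. Of 8 markers of other cells, 7 stayed under 1 CPM in all 12 libraries, and the lysosomal gene *CD68* was at 20.4 CPM in siCtrl DMSO and 73.5 CPM in siATF4 DMSO cells. These levels move with the siRNA groups, and their part in the differences below was not tested.

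The genes lie on separate chromosomes. On GRCh37, *ABCC2* (Entrez 1244) lies at chr10:101542397-101612351 on the plus strand with 32 exons, and *ABCC3* (Entrez 8714) at chr17:48712138-48769614 on the plus strand with 31 exons. *ABCC1* (4363) lies at chr16:16042995-16237114, *ABCC4* (10257) at chr13:95672089-95953729, *ABCC5* (10057) at chr3:183637722-183735727 and *ABCC10* (89845) at chr6:43395104-43418165. *ABCB1* (5243) lies at chr7:87132333-87342639, *ABCG2* (9429) at chr4:89011302-89152780 and *ABCA1* (19) at chr9:107543287-107690436. The reads counted were those over the exons of these genes, untranslated parts included. The strand setting of the counting is not stated, and 76 exon bases of *ABCC10* lie inside *DLK2* on the opposite strand, which had 3.39 CPM on average, while 221 exon bases of *ABCA1* lie inside a long non-coding RNA that is not in the table.

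Promoter windows of 300 bases, from 250 before to 50 after a transcription start, were read from RefSeq on GRCh38.p14. The table held 13 windows for 7 of the genes, with several starts for some, and had no entry for *ABCC1* and *ABCC3*. Both strands were searched for the TEAD core GGAATG, through which YAP and TAZ reach DNA, the CARE core TGATGNAA, bound by ATF4 with a partner, the antioxidant element core TGACNNNGC, the AP-1 core TGANTCA, the E-box CACGTG, and the paired elements AGGTNA and NGGTCA, 4 bases apart, of the kind bound by LXR. The antioxidant and AP-1 cores can overlap. The last motif, with 1 free base in each element, was chosen after the *ABCA1* window had been read. Of 35116 promoter windows in the table, 14.0% held the TEAD core, 3.62% the CARE core, 13.3% the antioxidant core, 7.71% the AP-1 core, 7.26% the E-box and 0.094% the LXR pair. The windows of *ABCC2*, *ABCC10* and *ABCA1* are shown because these are the genes of the set whose response to Sorafenib was called different between siCtrl and siATF4 cells. Capitals mark the matches.
ABCC2, chr10:99782390-99782689, plus strand: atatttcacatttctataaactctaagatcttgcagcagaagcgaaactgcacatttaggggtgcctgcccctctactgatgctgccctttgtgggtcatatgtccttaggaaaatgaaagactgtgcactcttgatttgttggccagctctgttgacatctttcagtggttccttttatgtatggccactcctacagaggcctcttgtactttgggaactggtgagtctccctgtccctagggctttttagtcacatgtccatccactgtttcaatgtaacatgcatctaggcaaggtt
ABCC10, chr6:43427291-43427590, plus strand: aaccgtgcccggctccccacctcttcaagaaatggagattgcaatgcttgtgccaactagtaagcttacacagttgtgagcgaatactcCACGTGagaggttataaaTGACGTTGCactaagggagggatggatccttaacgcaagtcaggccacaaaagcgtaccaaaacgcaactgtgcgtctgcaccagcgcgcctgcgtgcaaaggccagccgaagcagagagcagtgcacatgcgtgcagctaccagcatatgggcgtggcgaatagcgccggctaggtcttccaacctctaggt
ABCA1, chr9:104928106-104928405, minus strand: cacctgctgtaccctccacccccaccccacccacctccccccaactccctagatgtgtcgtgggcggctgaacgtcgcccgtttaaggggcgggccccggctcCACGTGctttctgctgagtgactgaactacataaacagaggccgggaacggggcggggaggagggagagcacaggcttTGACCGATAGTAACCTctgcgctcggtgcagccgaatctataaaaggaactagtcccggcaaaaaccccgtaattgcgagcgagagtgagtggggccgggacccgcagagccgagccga
The *ABCC2* window held none of the 6 motifs. The *ABCC10* window held an E-box starting at position -161 from the start site and an antioxidant core at -143, and the second window of *ABCC10* held none of the 6. The *ABCA1* window held an E-box at -147 and the LXR pair at -69, read on the opposite strand. Elsewhere, *ABCC4* had an antioxidant core at -149, *ABCC5* a TEAD core at -75, and *ABCB1* a TEAD core at -172 and an AP-1 core at -234, each in 1 of its windows. Among the 5 windows of *ABCG2*, a TEAD core, a CARE core, an antioxidant core and an E-box were found, the E-box being the same site seen in overlapping windows. A match describes the letters of the window, and a window without one says nothing about the factor.

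The pumps stood at very different levels in untreated control cells. Per kilobase of transcript, *ABCC4*, which exports cyclic nucleotides and prostaglandins, was at 16.4 ± 0.086 CPM per kb in siCtrl DMSO cells (SD, n = 2). *ABCC1*, which exports glutathione conjugates, followed at 9.80 ± 0.44 CPM per kb, and *ABCC2* at 7.68 ± 0.17 CPM per kb. *ABCC10*, at 6.37 ± 0.15 CPM per kb, and *ABCC5*, at 6.26 ± 0.012 CPM per kb, differed by less than the SD of *ABCC10*. *ABCA1* was at 2.98 ± 0.18, *ABCC3* at 1.01 ± 0.12, *ABCB1* at 0.548 ± 0.046 and *ABCG2* at 0.015 ± 0.016 CPM per kb. *ABCC4* ranked first, *ABCC1* second, *ABCB1* eighth and *ABCG2* ninth in all 6 groups. With the union of all annotated exons as the length, *ABCC5* was at 3.47 CPM per kb in siCtrl DMSO cells and *ABCC10* at 5.86 CPM per kb. The 9 genes together took 309 to 315 CPM in siCtrl DMSO cells, 222 to 229 CPM in siATF4 DMSO cells and 567 to 591 CPM in siY/T Srf cells, the lowest and the highest of the 6 groups.

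**Figure D1:**
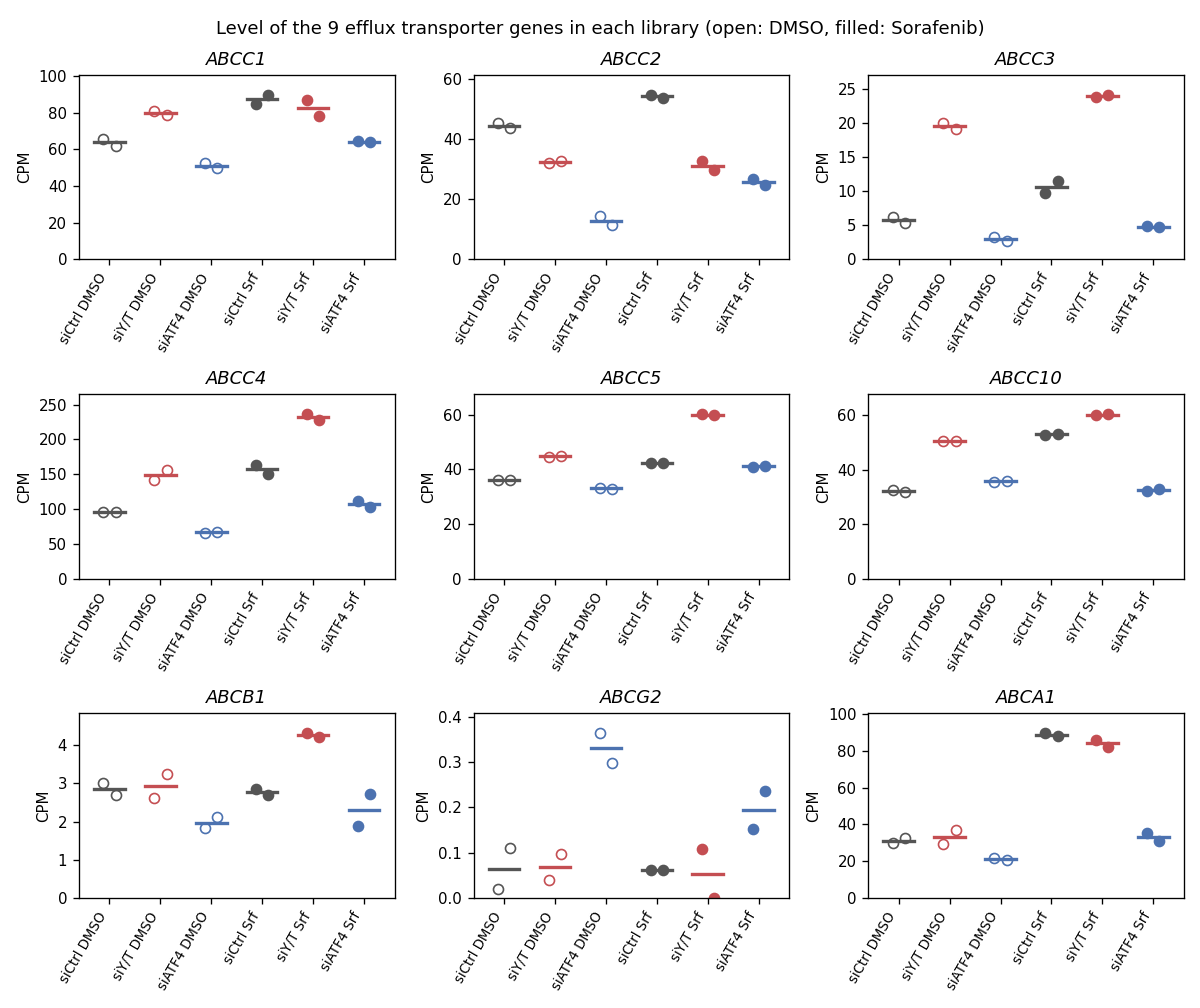
Level of each of the 9 genes in CPM (vertical axes, each from 0) in the 12 libraries, by group (horizontal axes). Each point is a library, open for DMSO and filled for Sorafenib, and the bar is the mean of the 2 libraries. *ABCC3* was highest in the siY/T libraries, and *ABCC2* was highest in the siCtrl libraries, with or without Sorafenib.

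*ABCC2*, the canalicular conjugate pump, was highest in control cells. In DMSO it was at 45.3 and 43.9 CPM in the 2 siCtrl libraries, 32.0 and 32.9 CPM in siY/T and 14.3 and 11.5 CPM in siATF4 cells. With Sorafenib it was at 54.9 and 53.9 CPM in siCtrl, 32.8 and 29.6 CPM in siY/T and 26.7 and 24.9 CPM in siATF4 cells. In each medium both libraries of each knockdown lay below both siCtrl libraries, and the siATF4 libraries lay below the siY/T libraries. In bulk RNA, fewer cells that make a transcript and less of it per cell cannot be told apart. On the log2(CPM + 0.5) scale, on which all fold changes here are given, siY/T cells differed by -0.45 in DMSO (standard error 0.084) and by -0.79 in Sorafenib. With siATF4 the difference was -1.75 in DMSO and -1.06 in Sorafenib, with the same standard error. The siY/T and siATF4 comparisons share their siCtrl libraries.

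*ABCC3*, the basolateral pump for glucuronides and bile salts, was instead higher with siY/T. In DMSO it was at 6.25 and 5.30 CPM in siCtrl, 20.0 and 19.2 CPM in siY/T and 3.28 and 2.77 CPM in siATF4 libraries. With Sorafenib it was at 9.82 and 11.5 CPM in siCtrl, 23.9 and 24.2 CPM in siY/T and 4.87 and 4.79 CPM in siATF4 libraries. The siY/T libraries were the highest and the siATF4 libraries the lowest in each medium, with no overlap between groups. With siY/T the log2 fold change came to 1.68 in DMSO and 1.14 in Sorafenib, and with siATF4 to -0.83 and -1.06 (standard error 0.099).

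The balance of the 2 pumps differed between the groups. The ratio of *ABCC2* to *ABCC3* in CPM was 7.24 and 8.27 in the siCtrl DMSO libraries, 1.60 and 1.71 in siY/T DMSO and 4.37 and 4.16 in siATF4 DMSO. With Sorafenib it was 5.59 and 4.70 in siCtrl, 1.37 and 1.22 in siY/T and 5.49 and 5.20 in siATF4 cells. The siY/T libraries had the lowest ratios, and in Sorafenib the siCtrl and siATF4 ratios overlapped although both transcripts were lower in siATF4 cells. These ratios rest on the values that chose the set.

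**Figure D2:**
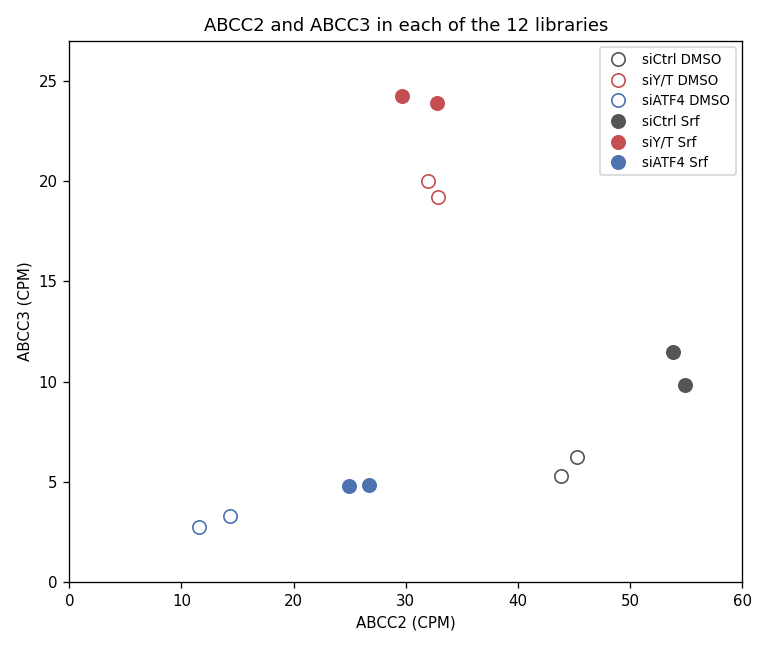
*ABCC2* (horizontal axis, CPM) against *ABCC3* (vertical axis, CPM) in each of the 12 libraries, open for DMSO and filled for Sorafenib. The siY/T libraries sit at 29.6 to 32.9 CPM of *ABCC2* and 19.2 to 24.2 CPM of *ABCC3*, the siCtrl libraries to their lower right, and the siATF4 libraries nearest the origin.

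The other MRP genes were mostly higher with siY/T and lower with siATF4. *ABCC4* was at 96.3 and 95.6 CPM in siCtrl DMSO, 142 and 156 CPM in siY/T DMSO and 66.2 and 66.5 CPM in siATF4 DMSO libraries. With Sorafenib it was at 164 and 150 CPM in siCtrl, 237 and 228 CPM in siY/T and 112 and 103 CPM in siATF4 libraries. Within each medium these groups did not overlap, and the log2 fold changes were 0.63 (DMSO) and 0.57 (Sorafenib) with siY/T and -0.53 and -0.54 with siATF4 (standard error 0.057). *ABCC1* was at 65.8 and 61.8 CPM in siCtrl DMSO, 80.9 and 78.8 CPM in siY/T DMSO and 52.6 and 49.6 CPM in siATF4 DMSO libraries. In Sorafenib its siCtrl libraries, at 84.6 and 89.8 CPM, overlapped with those of siY/T, at 87.0 and 78.3 CPM, and lay above those of siATF4, at 64.4 and 63.9 CPM.

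*ABCC5*, an exporter of cyclic nucleotides, varied least with siATF4. It was at 36.3 and 36.2 CPM in siCtrl DMSO, 44.5 and 45.0 CPM in siY/T DMSO and 33.2 and 33.0 CPM in siATF4 DMSO libraries, and with Sorafenib at 42.2 and 42.4, 60.4 and 59.8, and 40.9 and 41.4 CPM in the same order. Its log2 fold change with siATF4 was -0.13 in DMSO and -0.04 in Sorafenib (standard error 0.044), against 0.30 and 0.50 with siY/T. *ABCC10*, an exporter of lipophilic drugs, was at 32.7 and 31.6 CPM in siCtrl DMSO, 50.42 and 50.45 CPM in siY/T DMSO and 35.6 and 35.9 CPM in siATF4 DMSO libraries. With Sorafenib it was at 52.9 and 53.1 CPM in siCtrl, 59.9 and 60.5 CPM in siY/T and 32.0 and 33.0 CPM in siATF4 libraries. Of the 8 genes that passed the filter on low values it was the 1 that lay above siCtrl with siATF4 in DMSO, with a log2 fold change of 0.15, and it lay below siCtrl in Sorafenib, with -0.70 (standard error 0.046).

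The pumps of the other subfamilies were low or followed another pattern. *ABCB1* had 3.02 and 2.69 CPM in siCtrl DMSO, 2.61 and 3.24 CPM in siY/T DMSO and 1.82 and 2.12 CPM in siATF4 DMSO libraries. With Sorafenib it had 2.84 and 2.71 CPM in siCtrl, 4.32 and 4.21 CPM in siY/T and 1.90 and 2.72 CPM in siATF4 libraries, so that only the siY/T libraries stood apart in Sorafenib. *ABCG2*, a transporter for sulfates, urate and drugs, had 0 to 5 reads in each of the 8 siCtrl and siY/T libraries, 17 and 15 reads in siATF4 DMSO and 8 and 11 reads in siATF4 Srf libraries. No library reached 1 CPM of *ABCG2*, the gene did not pass the filter on low values, and no fold change is given. The other 8 genes were at 1.82 CPM or more in all 12 libraries.

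*ABCA1*, the sterol exporter, was at 29.7 and 32.4 CPM in siCtrl DMSO, 29.0 and 36.9 CPM in siY/T DMSO and 21.8 and 20.7 CPM in siATF4 DMSO libraries. With Sorafenib it was at 89.7 and 87.8 CPM in siCtrl, 86.1 and 82.3 CPM in siY/T and 35.5 and 31.1 CPM in siATF4 libraries. Its log2 fold change with siATF4 was -0.53 in DMSO and -1.41 in Sorafenib (standard error 0.094), and with siY/T it was 0.08 and -0.08.

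Counts of these differences are given at the study's thresholds, an unadjusted P under 0.05 with a log2 fold change of 0.58 or more in either direction, beside the share of all 13515 genes tested that passed them. Nothing is read from them for the siRNA comparisons, which chose the set. With siY/T in DMSO, 3 of the 8 genes tested (*ABCC3*, *ABCC4* and *ABCC10*) were past them upwards, against 11.0% of all genes, and 0 downwards, against 3.61%. With siY/T in Sorafenib, *ABCC3* was past them upwards, against 6.11% of all genes, and *ABCC2* downwards, against 3.84%. With siATF4 in DMSO, *ABCC2* and *ABCC3* were past them downwards, against 14.1%, and 0 upwards, against 8.57%. With siATF4 in Sorafenib, 4 (*ABCC2*, *ABCC3*, *ABCC10* and *ABCA1*) were past them downwards, against 18.7%, and 0 upwards, against 10.3%. The median log2 fold change of the 8 genes was 0.31 in DMSO and 0.34 in Sorafenib with siY/T, against 0.07 and 0.05 over all genes, and -0.48 and -0.62 with siATF4, against -0.001 and -0.008. The values of *ABCC4* and *ABCC10* with siY/T in DMSO stood near the threshold, and they were under it at 0.56 and 0.57 with DESeq2 on the recovered reads. *ABCC4* was also under it after TMM scaling and with edgeR, at 0.57 each, and without replicate 2 of siY/T DMSO, at 0.56, and *ABCC10* after quantile normalization, at 0.57.

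**Figure D3:**
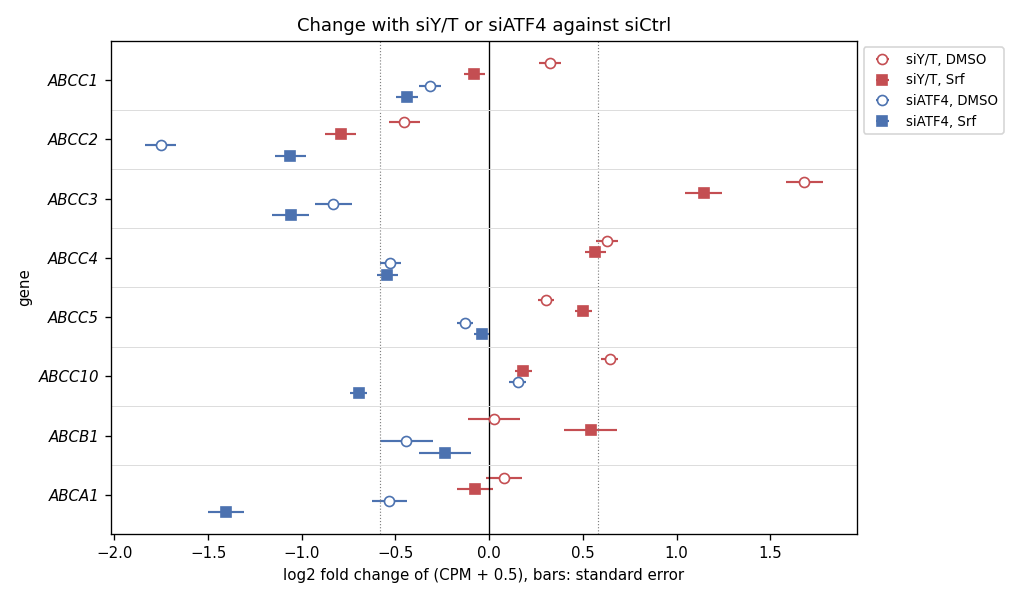
Log2 fold change of (CPM + 0.5) against siCtrl (horizontal axis) for the 8 genes tested (vertical axis), for siY/T in red and siATF4 in blue, open circles in DMSO and filled squares in Sorafenib. Bars are standard errors and dotted lines mark 0.58 in either direction. *ABCC3* lies to the right with siY/T and to the left with siATF4, and *ABCC2* lies to the left with both.

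Sorafenib against DMSO within one siRNA was not used to choose the set and was tested, although it shares libraries with the comparisons above. For *ABCC2* and *ABCC3*, whose values in these libraries made the choice, its p-values are therefore a description and not an independent test. The counts and medians of the 8 genes below include both. In siCtrl cells, 4 of the 8 genes were called raised, against 12.3% of all genes, and 0 lowered, against 5.15%. No gene of the 8 was lowered at an unadjusted P under 0.05 in limma, and edgeR and DESeq2 called 4 raised and 0 lowered as well. *ABCA1* rose most, 2.86-fold in mean CPM (limma adjusted p = 4.07e-08). *ABCC3* rose by 0.83 (standard error 0.099, limma adjusted p = 9.67e-06), *ABCC10* by 0.71 (limma adjusted p = 4.85e-08) and *ABCC4* by 0.70 (limma adjusted p = 3.19e-07). *ABCC1*, with 0.45, *ABCC2*, with 0.28, and *ABCC5*, with 0.22, were under the fold threshold at limma adjusted p = 1.93e-05, 0.0098 and 0.00075, and both Sorafenib libraries lay above both DMSO libraries for each. *ABCB1* overlapped between the media, with -0.03 (limma adjusted p = 0.851). The median over the 8 genes was 0.58, against 0.05 over all genes.

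In siY/T cells, 2 of the 8 genes were called raised by Sorafenib, against 5.83% of all genes, and 0 lowered, against 4.14%. These were *ABCA1*, with a log2 fold change of 1.35 or 2.55-fold in mean CPM (limma adjusted p = 1.76e-07), and *ABCC4*, with 0.64 (limma adjusted p = 1.53e-06). *ABCC4* was under the fold threshold, at 0.57, without replicate 1 of siY/T DMSO. *ABCC5*, with 0.42, *ABCC3*, with 0.29, and *ABCC10*, with 0.25, were under the fold threshold at limma adjusted p = 6.76e-06, 0.0255 and 0.00051. Both Sorafenib libraries lay above both DMSO libraries for each. *ABCC1* and *ABCC2* overlapped between the media, with 0.05 and -0.06 (limma adjusted p = 0.517 and 0.598). *ABCB1* was at 0.48 (standard error 0.139, limma adjusted p = 0.0109), under the fold threshold. Leaving out replicate 2 of siY/T DMSO put it past that threshold, at 0.61. No gene was lowered at an unadjusted P under 0.05 in limma, and edgeR and DESeq2 also called 2 raised and 0 lowered. The median over the 8 genes was 0.35, against 0.04 over all genes.

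In siATF4 cells, 4 of the 8 genes were called raised by Sorafenib, against 5.68% of all genes, and 0 lowered, against 2.95%. *ABCC2* rose by 0.98 (standard error 0.084, limma adjusted p = 1.31e-06), a 2.00-fold difference of mean CPM, and *ABCC4* by 0.69 (limma adjusted p = 9.09e-07). *ABCA1* rose by 0.63 (limma adjusted p = 0.00012) and *ABCC3* by 0.60 (limma adjusted p = 0.00027). The last pair stood near the threshold. After quantile normalization both were under it, at 0.56 and 0.47, *ABCA1* also without replicate 1 of siATF4 Srf, at 0.54, and *ABCC3* also without replicate 2 of siATF4 DMSO, at 0.50, after TMM scaling, at 0.58, and with a pseudocount of 1, at 0.54. *ABCC10* was lower with Sorafenib, at -0.14 (standard error 0.046, limma adjusted p = 0.0237), under the fold threshold, and both Sorafenib libraries lay below both DMSO libraries. It was the 1 gene lowered at an unadjusted P under 0.05, and edgeR and DESeq2 also called 4 raised and 0 lowered. *ABCC1*, with 0.33, and *ABCC5*, with 0.31, were under the fold threshold at limma adjusted p = 0.00048 and 8.85e-05. For each, both Sorafenib libraries lay above both DMSO libraries. *ABCB1* overlapped between the media, with 0.17 (limma adjusted p = 0.326). The median over the 8 genes was 0.46, against 0.03 over all genes.

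**Figure D4:**
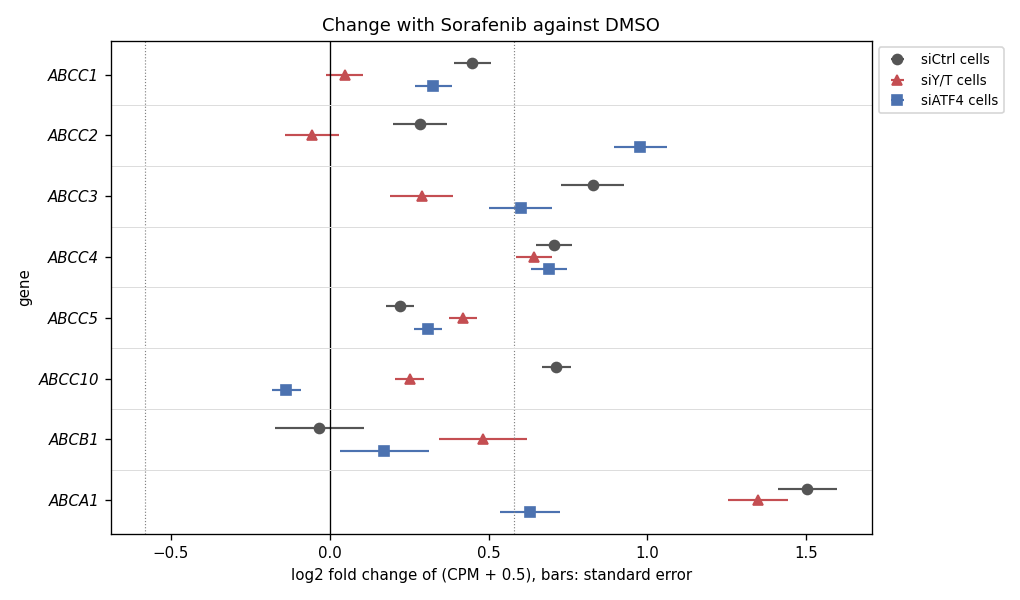
Log2 fold change of (CPM + 0.5) with Sorafenib against DMSO (horizontal axis) for the 8 genes tested (vertical axis), in siCtrl, siY/T and siATF4 cells. Bars are standard errors and dotted lines mark 0.58 in either direction. *ABCC4* takes nearly the same place in all 3 kinds of cells, between 0.64 and 0.70, whereas *ABCC10* runs from 0.71 in siCtrl to -0.14 in siATF4 cells.

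Whether a knockdown altered the response to Sorafenib was tested as the difference between the Sorafenib effects, called at a Benjamini-Hochberg adjusted p under 0.05. That difference equals the siRNA difference in Sorafenib less that in DMSO, so it is built from the comparisons that chose the set. For *ABCC2* and *ABCC3*, whose values made the choice, its p-values are a description and not an independent test. Between siY/T and siCtrl cells the difference was called for 4 of the 8 genes, against 22.0% of all genes in either direction. That count includes *ABCC3*, which helped choose the set, so nothing is read from it. The response was smaller in siY/T cells for *ABCC10*, with a difference of -0.46 (standard error 0.065, limma adjusted p = 0.00056), *ABCC3*, with -0.54 (standard error 0.140, limma adjusted p = 0.0164), and *ABCC1*, with -0.40 (standard error 0.082, limma adjusted p = 0.0049), and larger for *ABCC5*, with 0.20 (standard error 0.063, limma adjusted p = 0.0371). *ABCC2* had -0.34 (limma adjusted p = 0.0565), *ABCB1* 0.51 (limma adjusted p = 0.0785), *ABCA1* -0.15 (limma adjusted p = 0.426) and *ABCC4* -0.06 (limma adjusted p = 0.601). *ABCC1* and *ABCC10* passed under each alternative tried. *ABCC3* did not pass after quantile normalization (-0.36, adjusted p = 0.0823 in limma) or without replicate 1 of siY/T Srf, replicate 2 of siCtrl DMSO or replicate 2 of siCtrl Srf (-0.53, -0.43 and -0.43), and *ABCC5* failed under 12 of 22 alternatives, at adjusted p-values of up to 0.105 in limma.

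Between siATF4 and siCtrl cells the difference was called for 3 of the 8 genes, *ABCC2* among them, against 41.1% of all genes in either direction. The share among the pumps was thus no larger than that among all genes. The response was larger in siATF4 cells for *ABCC2*, with a difference of 0.69 (standard error 0.119, limma adjusted p = 0.00056), and smaller for *ABCC10*, with -0.85 (standard error 0.065, limma adjusted p = 1.75e-06), and *ABCA1*, with -0.87 (standard error 0.133, limma adjusted p = 0.00024). These 3 passed under each alternative tried. *ABCC3* had -0.23 (limma adjusted p = 0.213), *ABCC1* -0.12 (limma adjusted p = 0.250) and *ABCC4* -0.01 (limma adjusted p = 0.899). For *ABCC2*, Sorafenib brought siATF4 cells from 12.9 to 25.8 CPM, still below the 44.6 CPM of siCtrl DMSO cells.

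The genes most like *ABCC2* and *ABCC3* over the 12 libraries were sought by Pearson's r of log2(CPM + 0.5), among the 11151 tested genes that averaged 5 CPM or more. The libraries share their groups, so r is a description. Most like *ABCC2* were *PALM3* (r = 0.978), *PXDNL* (r = 0.975) and *KRT80*, a keratin gene (r = 0.975). *KRT80* was at 99.8 CPM in siCtrl DMSO, 77.2 CPM in siY/T DMSO and 32.4 CPM in siATF4 DMSO cells. Most like *ABCC3* were *PCIF1*, which encodes a cap methyltransferase (r = 0.996), *C1QTNF6* (r = 0.995) and *ADGRE5*, an adhesion receptor gene (r = 0.994). *ADGRE5* was at 34.1 CPM in siCtrl DMSO, 61.9 CPM in siY/T DMSO and 21.8 CPM in siATF4 DMSO cells.

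Other ABC transporters of subfamilies A to D and G were counted at the same thresholds. In this list and those below, counts at both thresholds can be read against the shares of all genes given above. For counts at an unadjusted P under 0.05 alone, no share of all genes is given. Those counts therefore cannot tell a list from all genes, and nothing is read from them. Of 35 listed, 16 were tested. With siY/T 4 were raised and 0 lowered in DMSO and 0 raised and 1 lowered in Sorafenib, and with siATF4 4 were lowered in DMSO and 5 in Sorafenib and 0 raised in either. At an unadjusted P under 0.05 alone, limma gave 8 raised and 3 lowered with siY/T in DMSO and 5 raised and 5 lowered in Sorafenib, and with siATF4 3 raised and 10 lowered in DMSO and 1 raised and 12 lowered in Sorafenib. *ABCA7*, a phospholipid transporter, went with siY/T in DMSO from 8.45 up to 16.7 CPM (limma adjusted p = 2.14e-07) and fell from 16.9 to 7.72 CPM with siATF4 in Sorafenib (limma adjusted p = 1.81e-08). *ABCA5* fell from 9.14 to 5.94 CPM with siATF4 in DMSO (-0.58, limma adjusted p = 0.0011). Sorafenib in siCtrl cells raised 6 and lowered 0 (12 and 3 at an unadjusted P under 0.05 in limma), among them *ABCA2*, from 16.5 to 35.2 CPM (1.07, limma adjusted p = 9.83e-08), and *ABCA3*, a lipid transporter, from 43.8 to 85.9 CPM (0.97, limma adjusted p = 4.53e-08). The median of the 16 was 0.37 there, against 0.05 over all genes. The bile salt export pump gene *ABCB11* was at 0 in all 12 libraries, and *ABCB4*, which moves phosphatidylcholine into bile, did not exceed 0.067 CPM.

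ABC proteins without membrane domains, which serve translation and not transport, were counted apart. All 4 were tested, and siATF4 in Sorafenib raised 2 and lowered 0, or 3 and 0 at an unadjusted P under 0.05 in limma. *ABCE1*, a ribosome recycling factor, rose from 157 to 280 CPM there (0.83, limma adjusted p = 4.85e-08) and *ABCF1* from 143 to 223 CPM (0.64, limma adjusted p = 9.96e-09). With siY/T in DMSO *ABCE1* went from 223 down to 140 CPM (-0.67, limma adjusted p = 9.87e-07).

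Carriers that bring drugs into the cell were mostly absent. Of 18 listed, 8 were tested, and the hepatic carrier genes *SLCO1B1* and *SLCO1B3* did not exceed 0.145 and 0.121 CPM. With siY/T 1 was raised and 0 lowered in either medium. With siATF4 1 was raised and 3 lowered in DMSO, and 0 raised and 2 lowered in Sorafenib. The median of the 8 in DMSO was 0.32 with siY/T, against 0.07 over all genes, and -0.07 with siATF4, against -0.001. *SLC22A3*, an organic cation transporter, was raised by siY/T from 16.8 to 52.3 CPM in DMSO (1.61, limma adjusted p = 1.12e-08) and lowered by siATF4 to 9.11 CPM (-0.86, limma adjusted p = 1.23e-06), and Sorafenib raised it in siCtrl cells to 35.6 CPM (limma adjusted p = 3.09e-07). *SLC29A2*, a nucleoside transporter, went from 24.5 down to 13.5 CPM with siATF4 in DMSO (limma adjusted p = 1.37e-06), and *SLCO4A1* fell with Sorafenib in siCtrl cells from 25.7 to 13.1 CPM (limma adjusted p = 9.78e-07).

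Enzymes that make the conjugates carried by MRPs were counted in the same way. Of 30 listed, 18 were tested. With siY/T in DMSO 5 were raised and 0 lowered, with a median of 0.42 against 0.07 over all genes. With siY/T in Sorafenib 2 were raised and 1 lowered, with a median of 0.17 against 0.05, and with siATF4 6 were lowered in DMSO and 7 in Sorafenib and 0 raised in either. At an unadjusted P under 0.05 alone, limma gave 12 raised and 2 lowered with siY/T in DMSO and 9 raised and 3 lowered in Sorafenib, and with siATF4 3 raised and 13 lowered in DMSO and 2 raised and 16 lowered in Sorafenib. No share of all genes stands beside the counts at P alone, so they cannot tell these enzymes from all genes. *SULT1C4*, a sulfotransferase gene, went with siY/T in DMSO from 21.4 up to 44.8 CPM (limma adjusted p = 3.61e-07) and fell to 8.31 CPM with siATF4 (limma adjusted p = 2.12e-08). *SULT2B1*, which sulfates sterols, fell from 13.0 to 4.39 CPM with siATF4 in Sorafenib (limma adjusted p = 1.01e-08), and *MGST2*, a microsomal glutathione transferase gene, from 7.60 to 2.88 CPM (limma adjusted p = 7.79e-08). *UGT2B7*, a glucuronosyltransferase gene, rose from 10.1 to 16.9 CPM with siY/T in Sorafenib (limma adjusted p = 1.02e-05), where *SULT2B1* fell to 8.48 CPM (-0.59, limma adjusted p = 0.00016). Sorafenib in siCtrl cells raised 4 and lowered 0 (12 and 1 at an unadjusted P under 0.05 in limma), with *GSTM4* going from 6.29 to 14.9 CPM (limma adjusted p = 3.74e-07). *GSTM4* has close paralogs, so its value is uncertain.

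**Figure D5:**
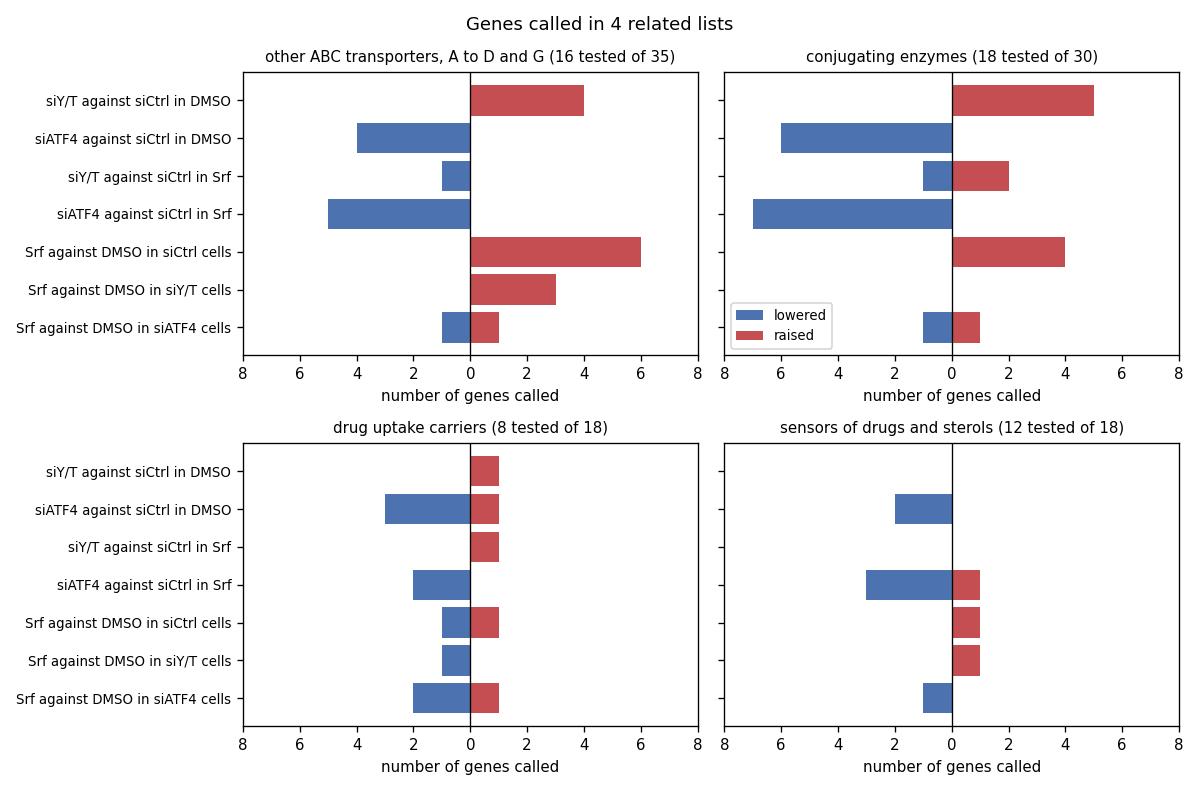
Number of genes called raised (red, to the right of 0) and lowered (blue, to the left of 0) in 7 comparisons (vertical axes) for 4 lists of related genes. Among the 16 other ABC transporters tested, siATF4 lowered 4 in DMSO and 5 in Sorafenib and raised 0. Among the 18 conjugating enzymes tested, it lowered 6 and 7 and raised 0. Of all genes tested, siATF4 lowered 14.1% in DMSO and 18.7% in Sorafenib, and raised 8.57% and 10.3%.

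Nuclear receptors and other sensors that act on pump genes were measured as a list of 18, of which 12 were tested. The xenobiotic receptor genes *NR1I2* (PXR) and *NR1I3* (CAR) were at 0 in all 12 libraries. With siY/T, limma called 0 of the 12 in either medium, and at an unadjusted P under 0.05 alone 6 were higher and 3 lower in DMSO and 6 higher and 1 lower in Sorafenib. Nothing is read from the counts at P alone, which have no share of all genes beside them. With siATF4, *RXRA*, the common partner of these receptors, fell from 51.3 to 26.1 CPM in DMSO (-0.96, limma adjusted p = 2.00e-08) and from 73.5 to 32.1 CPM in Sorafenib (-1.18, limma adjusted p = 1.91e-09). *NR3C1*, the glucocorticoid receptor gene, went from 244 down to 127 CPM with siATF4 in DMSO (limma adjusted p = 9.63e-08). *PPARG* rose from 80.8 to 137 CPM with siATF4 in Sorafenib (0.76, limma adjusted p = 3.67e-09). Sorafenib raised *PPARA* in siCtrl cells from 6.67 to 12.1 CPM (limma adjusted p = 1.31e-05) and lowered *NR1H2*, which encodes LXR beta, in siATF4 cells from 88.4 to 56.9 CPM (limma adjusted p = 2.00e-06).

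Genes that respond to the oxysterol receptor LXR, as *ABCA1* does, were listed without *ABCA1*. Of 10, 7 were tested, and siATF4 in Sorafenib lowered 5 and raised 0 (6 and 1 at an unadjusted P under 0.05 in limma), with a median of -0.89 against -0.008 over all genes. *SREBF1*, the gene of a lipogenic transcription factor, fell there from 228 to 85.3 CPM (-1.41, limma adjusted p = 5.76e-10) and *SCD*, the stearoyl-CoA desaturase gene, from 718 to 286 CPM (-1.33, limma adjusted p = 3.57e-09). The same pair fell with siATF4 in DMSO. Sorafenib in siCtrl cells raised 2 of the 7 and lowered 0 (4 and 1 at an unadjusted P under 0.05 in limma). *SCD* went the other way from *ABCA1* there, from 1074 to 718 CPM, and was not called. In siY/T cells Sorafenib raised 2 and lowered 1, which was *SCD*, from 878 to 476 CPM (-0.88, limma adjusted p = 8.78e-07). *ABCG1* did not exceed 0.059 CPM, and *ABCG5* and *ABCG8*, the sterol pumps of the canalicular membrane, were at 0 in all 12 libraries. Of 8 genes whose proteins hold transporters at the membrane, 6 were tested, and *NHERF2* went from 17.6 down to 10.6 CPM with siATF4 in DMSO (-0.70, limma adjusted p = 1.60e-06) and rose with Sorafenib in siATF4 cells to 17.3 CPM (0.68, limma adjusted p = 7.64e-06). The anchor of MRP2, radixin, encoded by *RDX*, was at a median of 293 CPM over the 12 libraries.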

How the data were processed

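RNA-seq of 12 libraries of HLE cells was analysed, 2 for each of 6 groups, grouped by their labels. Per the submitters' notes and the study's methods, the authors mapped reads to hg19 with STAR, kept unique hits, used QuasR to count those on RefSeq mRNA exons and deposited CPM. The labels name a stranded poly(A) kit, the methods a total RNA kit and more replicates, and the strand setting and any low-value filter are not given in the sources used here. Within 0.001 read, 100% of the deposited CPM values were whole reads, which were used for edgeR and DESeq2 as alternatives only. A RefSeq table gave names for 26111 of 26258 Entrez identifiers.

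The 13515 genes reaching 1 CPM in 2 or more libraries were fitted as log2(CPM + 0.5) with limma 3.58.1 in R 4.3.3, with a variance trend, 1 coefficient per group and all 12 libraries. Tests were two-sided with Benjamini-Hochberg adjustment over all genes tested. Changes were called at an unadjusted P under 0.05 with a log2 fold change of 0.58 or more in either direction, and differences of the Sorafenib effect at an adjusted p under 0.05. The precision is that of 2 libraries per group with 41408348 to 53619732 reads each. The 9 pumps and the related lists were chosen with earlier results of these data known. Named from the lists were up to 2 raised and 2 lowered genes per comparison with the largest changes, groups that did not overlap and an average of 5 CPM or more. *ABCB11*, *ABCB4*, *SLCO1B1*, *SLCO1B3*, *NR1I2*, *NR1I3*, *ABCG1*, *ABCG5*, *ABCG8*, *RDX* and the markers lie outside this rule and were named after their values were seen, and some genes that the rule picks are not reported here. Alternatives were pseudocounts of 0.1 and 1, no filter and a filter at 5 CPM, TMM and quantile scaling, a replicate block, fits of only the groups compared, edgeR 4.0.16, DESeq2 1.42.0, a stricter threshold, and each library left out. The fits were tested on simulated reads. Figures were drawn with matplotlib 3.10.9.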

Additional observations from a re-analysis of the deposited data

Results flagged for a closer look

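The effect of Sorafenib differed between siY/T and siCtrl cells, by the test of the difference itself, for *ABCC1* (-0.40 on the log2 scale), *ABCC3* (-0.54), *ABCC5* (0.20) and *ABCC10* (-0.46), 4 of the 8 genes against 22.0% of all genes. Of these, *ABCC5* lost the call under 12 of 22 alternatives and *ABCC3* under 4 of 22. It differed between siATF4 and siCtrl cells for *ABCC2* (0.69), *ABCC10* (-0.85) and *ABCA1* (-0.87), 3 of the 8 genes against 41.1% of all genes, which is no larger a share than among all genes. *ABCC10* was the 1 gene of the 8 that differed in both, and both tests use the same siCtrl libraries. Both tests are also built from the siRNA differences that chose the set, so for *ABCC2* and *ABCC3* they are a description. The counts include these genes and are a description as well. Sorafenib brought *ABCC10* from 32.1 to 53.0 CPM in siCtrl cells, from 50.4 to 60.2 CPM in siY/T cells and from 35.8 to 32.5 CPM in siATF4 cells. *ABCA1* went from 31.0 to 88.7 CPM in siCtrl cells, from 33.0 to 84.2 CPM in siY/T cells and from 21.3 to 33.3 CPM in siATF4 cells. With 2 libraries per group, single libraries could not be examined for outlying values.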

How the results depend on the processing

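In all, 23 settings were tried, 12 of which left out 1 library each. Of 205 counts of called pumps, 193 stayed within 1.5 times the reported count and 12 did not. No fold change of a pump reversed a call. With DESeq2 on the recovered reads, 1 pump was called with siY/T in DMSO in place of 3. With the threshold set at an adjusted p under 0.05 and a log2 fold change of 1, 1 was called with siY/T in DMSO, 1 with siATF4 in DMSO, 1 with siY/T in Sorafenib, 1 with Sorafenib in siCtrl cells, 1 with Sorafenib in siY/T cells and 0 with Sorafenib in siATF4 cells, since that rule is stricter by construction. After quantile normalization 2 were called with Sorafenib in siATF4 cells in place of 4, and the cause was not tested. With each library left out, the count for Sorafenib in siY/T cells ranged from 1 (without replicate 1 of siY/T DMSO) to 3, and that for the difference between siY/T and siCtrl cells from 2 to 6, with 2 without replicate 1 of siY/T Srf, replicate 2 of siCtrl DMSO or replicate 2 of siCtrl Srf. No other scaling moved the median of all genes by more than 0.090 on the log2 scale.

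The groups share replicate numbers in the labels. The deviations of same-numbered libraries correlated between -0.28 and 0.19 over 15 pairs of groups, and 4 of these were over 0.1. Between groups in the same medium all were positive, at 0.10 to 0.16 in Sorafenib and 0.036 to 0.19 in DMSO, and between media they were -0.28 to 0.0054. The numbers were not taken to pair the libraries across the 6 groups, and sharing within a medium cannot be told from these values. With the replicate block, 5 pumps differed in their Sorafenib effect between siY/T and siCtrl cells in place of 4, *ABCC2* being added (-0.34, limma adjusted p = 0.0392), and the other 8 counts were the same. *ABCC2* passed that test under 9 of 22 alternatives, which is a description, since its siRNA differences chose the set. *ABCB1*, with 1.82 to 4.32 CPM, and *ABCG2*, with at most 17 reads, are the genes that depth limits most.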
